A study of Oryza sativa with 11 samples.

Results

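The primary wall cellulose synthase genes of rice (Oryza sativa) were followed in anther RNA as 5 loci taken from a fixed list of locus IDs: CESA1 (LOC_Os05g08370), CESA3 (LOC_Os07g24190), CESA5 (LOC_Os03g62090), CESA6 (LOC_Os07g14850) and CESA8 (LOC_Os07g10770). They are 5 of 55986 loci in the expression table, and 4 of them reached the level needed for a test. By their locus IDs CESA1 lies on chromosome 5, CESA5 on chromosome 3, and CESA3, CESA6 and CESA8 on chromosome 7. RNA was taken from whole anthers of untreated, field-grown plants of the wild type (WT) and of the mutant ostie1-1, in which the gene concerned is OsTIE1, for a transcriptional repressor. The labels do not say how the allele was made or what background the plants share, and ostie1-1 is the only mutant allele. There were 3 libraries of WT and 3 of ostie1-1 at anther stage 10, and 3 of WT and 2 of ostie1-1 at stage 12. The study asked how loss of OsTIE1 changes anther development, which it links to the hormone jasmonate and to the opening of the anther.

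Cellulose synthase (CESA) proteins sit together in complexes in the plasma membrane and draw cellulose microfibrils from UDP-glucose. In Arabidopsis separate sets of CESA isoforms build the extensible primary wall of growing cells and the thick secondary wall laid down after growth, and the rice genes are assigned to these roles by relatedness and by mutants. CESA4, CESA7 and CESA9 are the secondary wall isoforms of rice, known from brittle culm mutants. In an anther, primary wall cellulose is made by all growing layers and by the pollen grain, whose inner wall layer, the intine, contains cellulose, while secondary thickenings form in the endothecium, the layer that drives opening, and in the vascular strand.

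Levels are in FPKM (fragments counted per kilobase, adjusted for library depth), as the authors deposited them, so that levels of different genes can be set side by side. Tests were run on log2(FPKM + 1) after each library had been divided by a scaling factor, and log2 fold changes are on that scale, on which the pseudocount of 1 shrinks the change of weakly expressed genes. Each test is limma's, fitted to all 11 libraries, and passing means p below 0.05 after Benjamini-Hochberg adjustment across the 21279 loci tested.

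WT stage 10 replicate 3 stood apart from its group. Across loci, the correlation of its log2 levels was 0.794 with replicate 1 and 0.795 with replicate 2 of WT stage 10, a pair with a correlation of 0.983. With the 3 ostie1-1 stage 10 libraries it was 0.881 to 0.903. Over 10 green tissue markers, of which 3 were listed at 0 in it and 4 to 6 in the other libraries, its FPKM summed to 1485. The sum was 77.7 and 64.0 in WT stage 10 replicates 1 and 2 and 9.41 to 109 in the rest. Its secondary wall genes were also far higher, as given below. The scaling factor of this library was 0.734, and that of its group's replicates 1 and 2 was 1.21 and 1.18, so its scaled levels lie further above theirs than its FPKM do. The stage 10 differences of the CESA genes that were tested are given with and without it. WT stage 10 replicates 1 and 2 correlated at 0.866 to 0.942 with the WT stage 12 libraries. With the 3 ostie1-1 stage 10 libraries they correlated at 0.812 to 0.86. A fit without replicate 3 thus sets ostie1-1 at stage 10 against libraries that are closer, by this measure, to WT at stage 12. The part of this likeness in the stage 10 differences of that fit was not tested. Anther markers were present in all libraries: none of 7 tapetum markers was listed at 0 anywhere, and the summed FPKM of 4 late pollen markers was 40.3 to 198 at stage 10 and 1014 to 3036 at stage 12. Levels in whole anthers do not separate fewer cells of a type from less RNA per cell.

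CESA1 was the most abundant of the 5 genes in each of the 11 libraries, CESA8 came next in 10 of them, and CESA5 and CESA6 were lower, except that CESA5 exceeded CESA8 in ostie1-1 stage 12 replicate 2. In WT at stage 10 the mean was 33.8 ± 1.82 FPKM for CESA1, 19.0 ± 3.93 for CESA8, 5.79 ± 0.505 for CESA5 and 4.91 ± 2.56 for CESA6 (SD, n = 3). CESA1 in this group ranked 3961st among all loci, above 81.4% of the loci tested, and in ostie1-1 at stage 10 it ranked 1424th. The order of CESA5 and CESA6 changed between groups. CESA5 was above CESA6 in 2 of 3 WT and 3 of 3 ostie1-1 libraries at stage 10, in 0 of 3 WT libraries at stage 12 and in 2 of 2 ostie1-1 libraries at stage 12. Their ranges overlapped in WT at stage 10, in ostie1-1 at stage 10 and in WT at stage 12. In ostie1-1 at stage 12 they did not overlap, with CESA5 at 7.69 and 11.1 FPKM and CESA6 at 3.74 and 4.67 FPKM.

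CESA3, the remaining isoform of the primary wall group, had almost no value in the table. All 3 of its transcript models were listed at 0 in 9 libraries, and its summed FPKM was 0.0124 in ostie1-1 stage 10 replicate 3 and 0.0106 in ostie1-1 stage 12 replicate 2. The other 4 genes have a single transcript model each. Over the whole table only 19.5% of loci with several models reached the test, against 40.4% of loci with a single model, so absence of CESA3 transcript cannot be inferred from these zeros, and the gene enters no comparison.

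**Figure D1:**
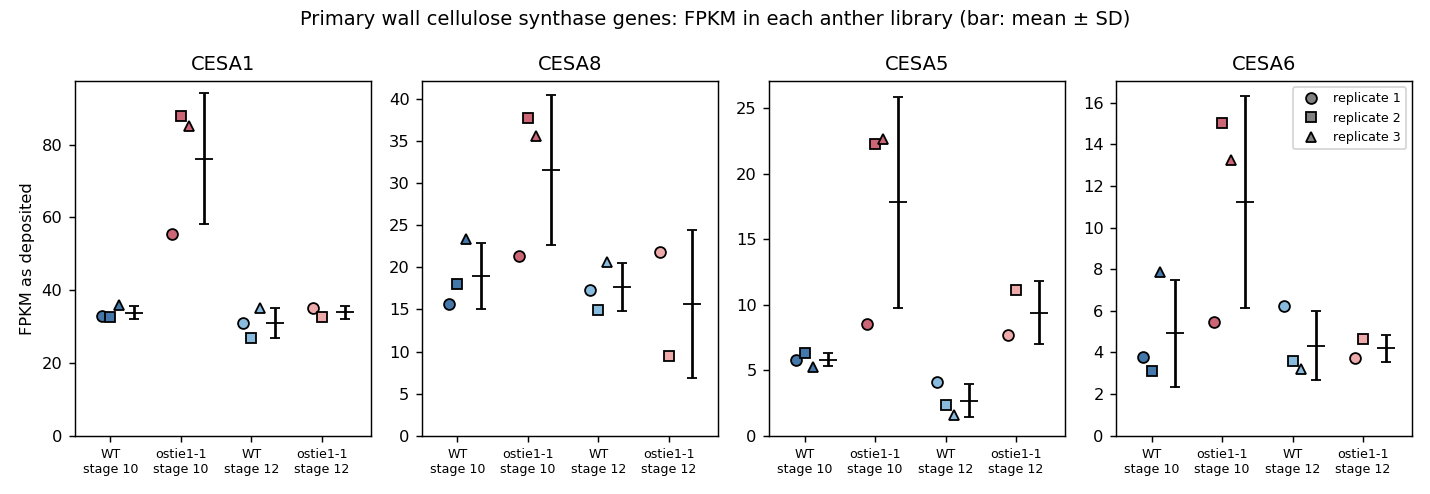
FPKM as deposited (vertical axis, starting at 0, a separate scale per gene) of the 4 measurable primary wall cellulose synthase genes in each library, by genotype and anther stage. Marker shapes give the replicate number and the bar beside each group the mean ± SD. In ostie1-1 at stage 10, replicates 2 and 3 lie above every other library in all 4 genes, and replicate 1 lies lower.

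At stage 10 CESA1 was higher in ostie1-1 than in WT, and the other 3 measurable genes had higher mean FPKM without passing the test. WT replicates 1, 2 and 3 had 32.9, 32.6 and 35.9 FPKM of CESA1, and ostie1-1 replicates 1, 2 and 3 had 55.5, 87.8 and 85.2 FPKM. All 3 mutant libraries stood above all 3 WT libraries, and the ratio of the group means was 2.25. On the scaled log2 scale CESA1 rose by 1.27 (SE 0.29, adjusted p = 0.0438, limma).

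CESA5 had the largest ratio of group means, 3.07. It stood at 5.82, 6.29 and 5.28 FPKM in WT and at 8.52, 22.3 and 22.6 FPKM in ostie1-1. The groups did not overlap, although replicate 1 of the mutant lay close to WT. Its log2 fold change was 1.498 (SE 0.37, 95% interval 0.68 to 2.32), and with an adjusted p = 0.0590 in limma it did not pass.

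CESA6 and CESA8 had overlapping groups. CESA6 measured 3.79, 3.11 and 7.85 FPKM in WT and 5.45, 15.0 and 13.3 FPKM in ostie1-1, with WT replicate 3 above mutant replicate 1. CESA8 measured 15.7, 18.0 and 23.3 FPKM in WT and 21.3, 37.7 and 35.6 FPKM in ostie1-1, with the same pair of libraries out of order. The log2 fold change was 1.14 for CESA6 (SE 0.47, 95% interval 0.11 to 2.17, adjusted p = 0.225, limma). It was 0.83 for CESA8 (SE 0.39, 95% interval -0.03 to 1.68, adjusted p = 0.280, limma).

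In all, 1 of 4 tested genes was called higher and 0 lower at stage 10, where 2.35% of all loci tested were called higher and 0.555% lower. In 2 of 4 genes the groups did not overlap, which held, in the upward direction, for 10.9% of all loci. The median log2 fold change of the 4 genes was 1.21, beside -0.01 over all loci tested.

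How many of these genes passed changed when the WT library that stood apart was left out, and also with the other changes given below. On the scaled values CESA1 was at 48.9 in WT stage 10 replicate 3 and at 27.3 and 27.7 in replicates 1 and 2, and this replicate was the highest of its group in all 4 genes. On the deposited FPKM it was the highest in CESA1, CESA6 and CESA8 and the lowest in CESA5. Without it all 4 genes rose, in a fit where 18.8% of all loci were called higher. The log2 fold change then was 1.55 for CESA1 (adjusted p = 0.00145), 1.65 for CESA5 (adjusted p = 0.00822), 1.69 for CESA6 (adjusted p = 0.00573) and 1.21 for CESA8 (adjusted p = 0.0187, limma throughout). With all libraries the CESA1 call was lost when any library other than this one was left out (adjusted p = 0.0590 to 0.202 in limma). It was also lost on unscaled FPKM (adjusted p = 0.0683) and with only the 6 stage 10 libraries fitted (adjusted p = 0.174).

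Replicate 1 of ostie1-1 at stage 10 had the lowest value of its group in all 4 genes. The summed FPKM of 7 tapetum markers was 31273 in this library and 59293 and 78143 in replicates 2 and 3, with 23872 to 32873 in WT at stage 10. Most of it was RTS (LOC_Os01g70440), at 46573 ± 19502 FPKM in ostie1-1 and 19869 ± 3643 FPKM in WT, while OsC6 (LOC_Os11g37280) stood at 9028 ± 4009 and 9232 ± 1249 FPKM (SD, n = 3 each). With all libraries 0 of the 7 passed at stage 10 in limma. An unadjusted p below 0.05 was found for 1 of the 7, beside 3991 of the 21279 loci tested. Without WT stage 10 replicate 3 there were 3 called higher, beside 18.8% of all loci, with RTS and OsC6 not among them. The summed FPKM of 4 pistil and glume markers was 60.2 in it, 117 and 123 in replicates 2 and 3, and 3.16 to 6.67 in WT at stage 10. In ostie1-1 nearly all of that sum was MADS6 (LOC_Os02g45770), which acts in floral organ identity, at 97.8 ± 33.4 FPKM, with 2.75 ± 1.01 FPKM in WT (SD, n = 3 each). Its log2 difference between the genotypes at stage 10 was 4.82 (SE 0.61, adjusted p = 0.00263, limma), and 5.18 without WT stage 10 replicate 3 (adjusted p = 0.000654). Of the 4 pistil and glume markers DL and MADS13 were listed at 0 in every stage 10 library. The part of these differences in the cellulose synthase values was not tested.

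At stage 12 CESA5 was the primary wall gene that passed between the genotypes. CESA5 measured 4.07, 2.34 and 1.62 FPKM in WT and 7.69 and 11.1 FPKM in ostie1-1. The lower of the 2 mutant values exceeded the highest WT value, and the ratio of the group means was 3.51. CESA5 rose by 1.81 on the scaled log2 scale (SE 0.42, adjusted p = 0.0381, limma), and without WT stage 10 replicate 3, which shares the variance estimate, the adjusted p was 0.0122. The call was lost on unscaled FPKM (adjusted p = 0.118). Leaving out single libraries also ended it, for all but WT stage 10 replicate 3 and ostie1-1 stage 10 replicate 1 (adjusted p = 0.0548 to 0.267 in limma, the highest without ostie1-1 stage 12 replicate 2).

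The other genes did not pass at stage 12. CESA1 stood at 31.0, 27.0 and 35.1 FPKM in WT and at 35.2 and 32.6 FPKM in ostie1-1. These FPKM overlapped, while the scaled values did not, and the log2 fold change was 0.48 (SE 0.33, 95% interval -0.25 to 1.20, adjusted p = 0.437, limma).

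CESA6 measured 6.21, 3.57 and 3.20 FPKM in WT and 3.74 and 4.67 FPKM in ostie1-1, and its log2 fold change was 0.29 (SE 0.52, 95% interval -0.86 to 1.44). CESA8 measured 17.3, 14.9 and 20.6 FPKM in WT and 21.9 and 9.44 FPKM in ostie1-1, so the mutant replicates lay on either side of WT. Its log2 fold change was 0.07 (SE 0.44, 95% interval -0.88 to 1.03). The sign of the CESA8 value turned negative on unscaled FPKM, TPM and quantile-normalized values, and that of CESA6 on TPM.

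Of the 4 genes 1 was called higher and 0 lower at stage 12, against 3.23% of all loci tested called higher and 0.301% lower. The median of the 4 log2 fold changes was 0.38, beside 0.05 over all loci. The groups did not overlap, on scaled values, in 2 of 4 genes (CESA1 and CESA5), which held in the upward direction for 25.8% of all loci. In the fit without WT stage 10 replicate 3, CESA5 alone passed again, beside 10.9% of all loci called higher.

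The genotype difference was also compared between the stages, by the interaction term of the same fit. None of the 4 genes passed, and 0.0188% of all loci did. At an unadjusted p below 0.05 there were 0 of the 4, beside 1156 of the 21279 loci tested. The difference, stage 12 minus stage 10, was -0.80 for CESA1 (95% interval -1.77 to 0.17), -0.85 for CESA6 (-2.39 to 0.70), -0.75 for CESA8 (-2.04 to 0.53) and 0.32 for CESA5 (-0.91 to 1.54), each with an adjusted p = 0.999 in limma. Without WT stage 10 replicate 3 it was -1.08 for CESA1 (adjusted p = 0.188), -1.40 for CESA6 (adjusted p = 0.241), -1.14 for CESA8 (adjusted p = 0.301) and 0.16 for CESA5 (adjusted p = 0.922), and 3 of 4 genes had an unadjusted p below 0.05. In that fit 3057 of the 21103 loci tested had an unadjusted p below 0.05. After adjustment 0.0474% of all loci passed upward and 0.0379% downward. The genotype effect was thus not shown to differ between the stages for any of these genes.

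**Figure D2:**
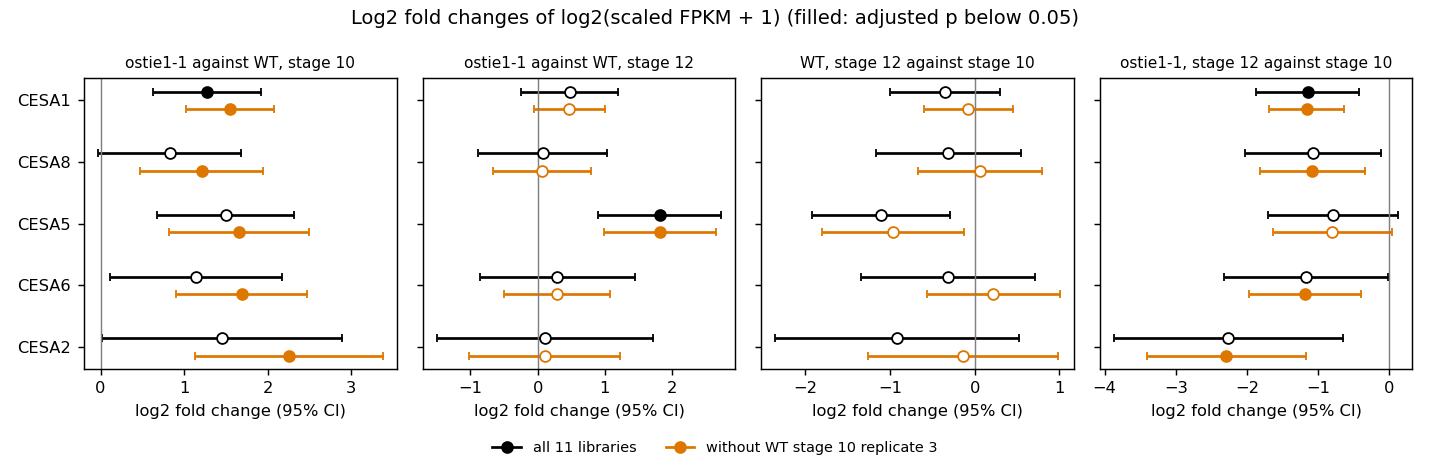
Log2 fold changes with 95% confidence intervals (horizontal axis, separate range per panel) of the 4 measurable primary wall cellulose synthase genes and of CESA2, in the 4 comparisons, from limma with all 11 libraries and without WT stage 10 replicate 3. Filled points have an adjusted p below 0.05. At stage 10, CESA1 alone is filled with all libraries and all 5 genes are filled without that replicate.

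From stage 10 to stage 12 CESA1 fell in ostie1-1, and none of the genes passed in WT. In ostie1-1 CESA1 went from 55.5, 87.8 and 85.2 FPKM to 35.2 and 32.6 FPKM. The groups did not overlap, and CESA1 fell by 1.15 on the log2 scale (SE 0.33, adjusted p = 0.0477, limma). The log2 fold change was -1.17 for CESA6 (SE 0.52, adjusted p = 0.197) and -1.07 for CESA8 (SE 0.44, adjusted p = 0.155), in each case with all scaled stage 12 values below all stage 10 values. For CESA8 the deposited FPKM overlapped. CESA5 had -0.79 (SE 0.42, adjusted p = 0.273, limma) with overlapping groups.

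Of the 4 genes 1 was called lower and 0 higher in ostie1-1, where 2.94% of all loci were called lower and 7.78% higher, and 3 of 4 had scaled groups that did not overlap, which held in the downward direction for 22% of all loci. Without WT stage 10 replicate 3, which enters here through the variance estimate and the scaling, CESA1 (adjusted p = 0.00702), CESA6 (0.0369) and CESA8 (0.0396) were called lower, where 9.52% of all loci were. With all libraries the CESA1 call was lost when any library other than that replicate was left out (adjusted p = 0.0504 to 0.196 in limma). The call was lost with the replicate number as a block too (adjusted p = 0.128).

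In WT 0 of 4 genes passed in limma between the stages, where 0.512% of all loci were called lower and 2.11% higher. An unadjusted p below 0.05 was found for 1 of the 4, beside 2992 of the 21279 loci tested. CESA5 had the largest difference, from 5.82, 6.29 and 5.28 FPKM at stage 10 to 4.07, 2.34 and 1.62 FPKM at stage 12. All stage 12 libraries lay below all stage 10 libraries, as for 11.3% of all loci, and the log2 fold change was -1.10 (SE 0.37, 95% interval -1.92 to -0.29, adjusted p = 0.179, limma). It was -0.35 for CESA1 (95% interval -0.99 to 0.30), -0.32 for CESA6 (-1.35 to 0.71) and -0.31 for CESA8 (-1.17 to 0.54). Without WT stage 10 replicate 3 these 3 values were -0.08, 0.22 and 0.06.

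The proportions of the genes to each other do not depend on how libraries are scaled. CESA1 made up 49.6% to 61.1% of the summed FPKM of the 5 genes over the 11 libraries. CESA8 made up 26.9%, 30.0% and 32.2% in WT at stage 10 and 23.5%, 23.2% and 22.7% in ostie1-1 at stage 10. All mutant shares were thus below all WT shares at stage 10. At stage 12 its share was 29.5%, 31.2% and 34.1% in WT and 31.9% and 16.3% in ostie1-1, where the groups overlapped.

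The share of CESA5 was 7.29% to 10.5% in WT and 9.39% to 14.4% in ostie1-1 at stage 10. At stage 12 it was 6.94%, 4.90% and 2.67% in WT and 11.2% and 19.2% in ostie1-1, both mutant libraries above all WT libraries. CESA1 FPKM exceeded CESA5 FPKM by a factor of 7.63 to 21.7 in WT at stage 12 and of 2.94 to 4.58 in ostie1-1 at stage 12. These shares were not tested.

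**Figure D3:**
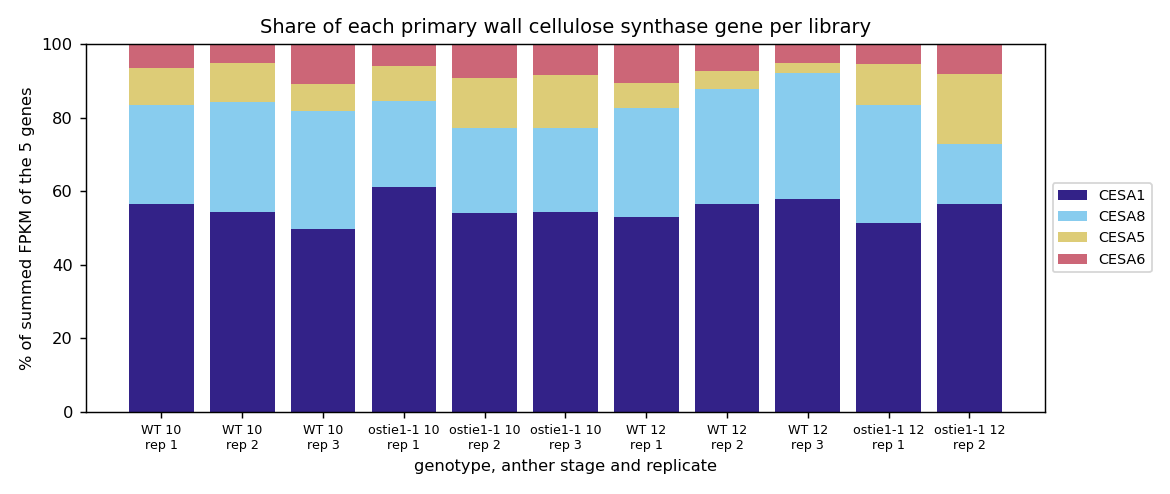
Share of each gene in the summed FPKM of the primary wall cellulose synthase genes (vertical axis, percent), for each library (horizontal axis). CESA3, at most 0.0183% of the sum, is not drawn. CESA8 takes 22.7% to 23.5% in ostie1-1 at stage 10 and 26.9% to 32.2% in WT at stage 10, and CESA5 takes 11.2% and 19.2% in ostie1-1 at stage 12 and 2.67% to 6.94% in WT at stage 12.

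The table also holds 6 other CESA loci, all tested. CESA2 (LOC_Os03g59340), another cellulose synthase isoform, had lower FPKM than CESA1 and CESA8 in each library. At stage 10 it measured 1.38, 2.12 and 8.30 FPKM in WT and 3.84, 14.9 and 14.6 FPKM in ostie1-1. WT replicate 3 lay above mutant replicate 1, so the groups overlapped, and the log2 fold change was 1.46 (SE 0.65, 95% interval 0.02 to 2.89, adjusted p = 0.263, limma). It rose by 2.25 once that WT replicate was left out (adjusted p = 0.00768). At stage 12 it was at 1.27 to 1.57 FPKM in WT and at 2.87 and 0.404 FPKM in ostie1-1. Between the stages in ostie1-1 its log2 fold change was -2.26 (SE 0.73, adjusted p = 0.0750, limma), a value that passed in the fit lacking WT stage 10 replicate 3 (adjusted p = 0.00987).

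The secondary wall genes CESA4 (LOC_Os01g54620), CESA7 (LOC_Os10g32980) and CESA9 (LOC_Os09g25490) were led by WT stage 10 replicate 3. CESA4 measured 11.4, 13.5 and 106 FPKM in WT at stage 10 and 19.0, 9.40 and 5.96 FPKM in ostie1-1. CESA7 measured 5.20, 5.87 and 68.5 FPKM in WT and 5.85, 4.77 and 1.96 FPKM in ostie1-1. CESA9 measured 4.79, 6.97 and 110 FPKM in WT and 2.92, 1.72 and 0.938 FPKM in ostie1-1.

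At stage 10 the log2 fold change was -1.10 for CESA4 (adjusted p = 0.502), -1.44 for CESA7 (adjusted p = 0.416) and -2.55 for CESA9 (adjusted p = 0.215, limma throughout). Without WT stage 10 replicate 3 these were 0.13 (adjusted p = 0.862), -0.08 (adjusted p = 0.917) and -0.99 (adjusted p = 0.106). Of the 6 other CESA genes 0 passed in limma at stage 10. An unadjusted p below 0.05 was found for 2 of the 6, beside 3991 of the 21279 loci tested. The median log2 fold change of the 6 was -0.47. The sign of that median rested on the same library, and without it the median was 0.047 with 2 of 6 called higher, beside 18.8% of all loci. CESA10 (LOC_Os12g29300) and CESA11 (LOC_Os06g39970) had group means of 0.381 to 3.11 FPKM and passed in no comparison with all libraries. In the fit without that library CESA10 rose at stage 10 (log2 fold change 0.84, adjusted p = 0.0361), as CESA2 did. At stage 10 the log2 fold change of CESA10 was 0.15 with all libraries, and that of CESA11 was 0.17 with all and -0.04 without that library.

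The summed FPKM of the 5 primary wall genes was 58.2, 60.0 and 72.4 in WT and 90.8, 163 and 157 in ostie1-1 at stage 10. That of CESA4, CESA7 and CESA9 was 21.3, 26.3 and 284 in WT and 27.8, 15.9 and 8.86 in ostie1-1. The primary wall sum was 2.73, 2.28 and 0.255 times the secondary wall sum in WT and 3.27, 10.2 and 17.7 times in ostie1-1, so the mutant ratios lay above all WT ratios. At stage 12 the ratio was 2.94 to 6.62 in WT and 3.87 and 10.96 in ostie1-1, and the groups overlapped. No test was run on these sums.

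**Figure D4:**
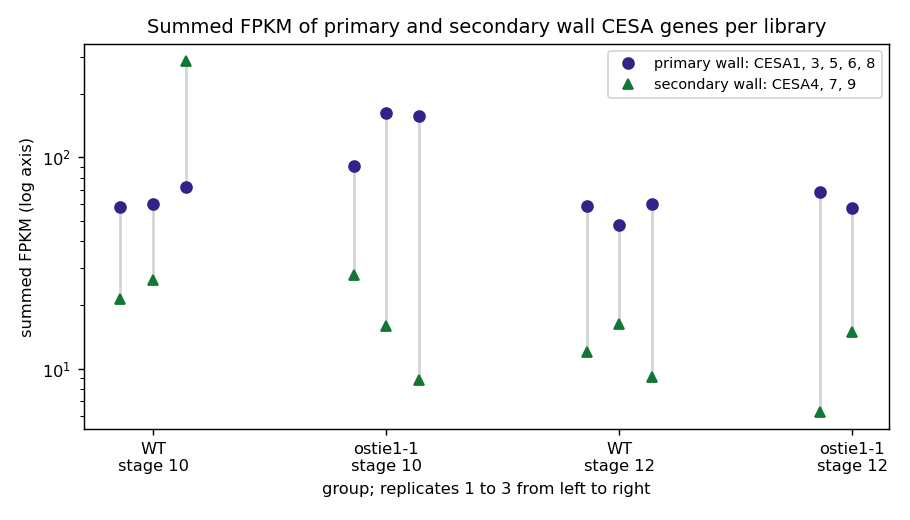
Summed FPKM (vertical log axis) of the primary wall genes CESA1, 3, 5, 6 and 8 and of the secondary wall genes CESA4, 7 and 9 in each library, joined by a line per library. WT stage 10 replicate 3 is the library in which the secondary wall sum, 284, exceeds the primary wall sum, 72.4.

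Likeness of expression was measured as the root-mean-square (RMS) difference, over the 11 libraries, between centred log2 levels, a measure that grows with the size of a gene's swings as well as with differences in their shape. Against the mean of the 4 measurable genes, to which each contributes, CESA1 differed by 0.168, CESA6 by 0.249, CESA8 by 0.359 and CESA5 by 0.4895 on the log2 scale. In nearness to that mean CESA1 ranked 4th, CESA6 39th, CESA8 394th and CESA5 1664th among the 21279 loci tested. Between pairs the smallest difference was 0.324, for CESA1 and CESA8, and the largest 0.822, for CESA5 and CESA8. CESA2 differed from the 4 genes by 0.6475 to 0.906, and CESA4, CESA7 and CESA9 differed from them by 1.22 to 2.07. CESA10 differed from them by 0.572 to 0.9975 and CESA11 by 0.846 to 1.27, both at low levels where the pseudocount shrinks swings. By this measure CESA10 lay nearer than CESA2 to CESA1, CESA6 and CESA8, but the order was the reverse by correlation. Over the 11 libraries, pooled without regard to group, CESA2 correlated with CESA1, CESA6 and CESA8 at 0.861, 0.888 and 0.9565. For CESA10 the correlations were 0.519, 0.5655 and 0.534. CESA4 and CESA7 differed from each other by 0.270. Among all loci outside the list, the 5 nearest to the mean of the genes differed from it by 0.154 to 0.2015. The nearest was LOC_Os06g48570, at 3.47, 3.63 and 4.10 FPKM in WT and 5.15, 12.6 and 13.4 FPKM in ostie1-1 at stage 10 (log2 fold change 1.29, adjusted p = 0.0809, limma). The next was LOC_Os05g04520, with a log2 fold change of 1.13 at stage 10 (adjusted p = 0.151, limma). None of the 5 passed in any of the 4 comparisons between groups, and the files give no names for them.

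Genes that act in cellulose deposition beside the synthases did not pass with all libraries. Of 7 listed cofactor genes, which include an endoglucanase of the KORRIGAN type and several brittle culm genes, 5 were tested and 0 passed in limma in any comparison with all libraries. At stage 10, 4 of 5 had an unadjusted p below 0.05, 4 of 5 had a positive value, and the median log2 fold change was 0.88. Of the 21279 loci tested, 3991 had an unadjusted p below 0.05 there and 10484 a positive value. BC3 (LOC_Os02g50550), for a dynamin-related protein of membrane traffic, differed by 1.19 on the log2 scale (SE 0.32, adjusted p = 0.0772). For GLU1 (LOC_Os03g21210), the endoglucanase gene, the WT mean was 30.2 ± 16.2 FPKM and the ostie1-1 mean 58.8 ± 11.1 FPKM (SD, n = 3 each). The log2 difference of GLU1 was 1.19 (SE 0.49, adjusted p = 0.227, limma). Both passed without WT stage 10 replicate 3, GLU1 with 1.83 (adjusted p = 0.00313) and BC3 with 1.49 (adjusted p = 0.00260). These 2 genes were chosen after their values were seen. In that fit 2 of the 5 genes rose at stage 10, beside 18.8% of all loci, 1 rose at stage 12, beside 10.9%, and 1 fell between the stages in ostie1-1, beside 9.52%.

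Of 8 listed genes for UDP-glucose supply, the sucrose synthases and UDP-glucose pyrophosphorylases that feed cellulose synthesis, 2 were tested. UGP2 (LOC_Os02g02560), a UDP-glucose pyrophosphorylase gene, rose from stage 10 to stage 12 in ostie1-1, from 12.0, 9.30 and 12.2 FPKM to 88.6 and 29.2 FPKM (log2 fold change 2.08, SE 0.45, adjusted p = 0.0136, limma). This is the direction opposite to that of CESA1 in the same libraries. The call was lost without ostie1-1 stage 12 replicate 1 (adjusted p = 0.154) and without ostie1-1 stage 10 replicate 2 (adjusted p = 0.0579). In WT the mean of UGP2 also went up between the stages, from 20.0 to 63.4 FPKM, without passing (log2 fold change 1.42, SE 0.41, adjusted p = 0.109, limma). Its mean in ostie1-1 at stage 12 was 58.9 FPKM. Between the genotypes 0 of the 2 genes passed in limma at either stage. At an unadjusted p below 0.05 there were 1 at stage 10 and 0 at stage 12. Of the 21279 loci tested there were 3991 and 4190.

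The cellulose synthase-like (CSL) families, which make other wall glycans, held genes that passed in both directions. Of 34 listed CSL loci 18 were tested. At stage 10, 1 was called higher in ostie1-1 and 0 lower, beside 2.35% and 0.555% of all loci, with a median log2 fold change of -0.13. CSLF9 (LOC_Os07g36610), of the family that makes the mixed-linkage glucan of grass walls, measured 4.10, 4.83 and 11.1 FPKM in WT and 25.2, 23.1 and 32.1 FPKM in ostie1-1. The groups did not overlap, and CSLF9 rose by 2.08 (SE 0.47, adjusted p = 0.0416, limma), a call lost with each of the 3 WT stage 12, 3 ostie1-1 stage 10 and 2 other WT stage 10 libraries left out (adjusted p = 0.06805 to 0.176). Without WT stage 10 replicate 3 the value was 2.69 (adjusted p = 0.000512). In WT the mean of CSLF9 went from 6.69 FPKM at stage 10 to 1.20 FPKM at stage 12, without passing. Its log2 fold change there was -1.29 without WT stage 10 replicate 3 (adjusted p = 0.0652, limma). CSLF9 fell in ostie1-1 between the stages, to 2.34 and 4.35 FPKM (log2 fold change -2.75, SE 0.53, adjusted p = 0.00720, limma). That call was lost without ostie1-1 stage 12 replicate 1 (adjusted p = 0.0919).

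At stage 12, 1 of the 18 CSL genes was called higher in ostie1-1, beside 3.23% of all loci. CSLD3 (LOC_Os08g25710), of the family closest to the CESA genes, measured 2.35, 0.531 and 1.498 FPKM in WT and 42.4 and 9.98 FPKM in ostie1-1. The mutant values differed from each other, and both exceeded the highest WT value. CSLD3 rose by 3.46 (SE 0.55, adjusted p = 0.00691, limma). The call was lost without ostie1-1 stage 12 replicate 1 (adjusted p = 0.0598). In WT 0 of the 18 CSL genes passed between the stages. There the mean of CSLD3 went from 0.127 to 1.46 FPKM and that of CSLC10 (LOC_Os07g03260) from 0.350 to 2.88 FPKM. Between the stages in ostie1-1, 2 CSL genes were called higher and 2 lower, beside 7.78% and 2.94% of all loci. CSLD3 was among the former (log2 fold change 3.56, adjusted p = 0.00279) with CSLC10 (2.08, adjusted p = 0.0126, limma). The CSLC10 call was lost when ostie1-1 stage 12 replicate 1 was left out (adjusted p = 0.125). The genes called lower were CSLF9 and CSLD1 (LOC_Os10g42750, -1.10, adjusted p = 0.0338, limma), the latter named because the count is small. The CSLD1 call was lost when any of 8 single libraries was left out (adjusted p = 0.05001 to 0.182), ostie1-1 stage 12 replicate 1 giving the highest value. Without WT stage 10 replicate 3, 6 of 18 CSL genes were called higher at stage 10, beside 18.8% of all loci, and 6 at stage 12, beside 10.9%, with 0 lower at either.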

How the data were processed

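RNA was measured by sequencing in 11 anther libraries. The deposited values are FPKM per MSU rice transcript model, computed by the authors. HISAT2 2.2.0, featureCounts and the genome IRGSP-1.0 are named in the submitters' processing notes. How counts became FPKM, the filters used and the treatment of reads shared between models are not given in the sources used here. Gene-level depth is therefore unknown, and no counting interval is given. Steps between low FPKM placed the depths at 0.914 to 1.17 times that of WT stage 10 replicate 1.

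FPKM were summed over the 66338 models to 55986 loci, divided by median-of-ratios factors (0.734 to 1.33) and put on the scale log2(FPKM + 1). A locus was tested if 2 or more libraries had 1 FPKM or more (21279 loci). limma 3.58.1 (R 4.3.3, trended variance, 1 mean per group) gave 5 contrasts. The procedure was tested on simulated data in which each gene had the same spread in every library. These data held no library that stands apart, so the simulation does not cover that case. Replicates are numbered as biological in the labels without naming separate plants, so the spread behind each p-value is that between samples and may be technical. Scaling, pseudocount, filter, variance, weights, replicate block and left-out libraries were varied.

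The members and gene lists were chosen with earlier results of these data known. The rule for named genes took the listed CESA loci, up to 3 passing loci per other list with the smallest adjusted p, and the 5 loci nearest in profile. Gene names were joined to locus IDs from general knowledge. A RefSeq gene table (ASM3414082v1) lists the names of 5 of 5 members, and of 61 of 92 listed genes, on the chromosome in the locus ID. Its coordinates belong to another build and are not used. Sequences were not used here.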

Additional observations from a re-analysis of the deposited data

How the results depend on the processing

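Of 4 tested primary wall genes, 1 passed at stage 10, 1 at stage 12, 1 between the stages in ostie1-1, and 0 in WT and for the difference between stages. At stage 10 the count was 0 on unscaled FPKM, on TPM, without the filter on low values, with only the 2 groups compared, and with the replicate block. It was 4 with array weights, where 13575 of the 21279 loci passed in either direction. Leaving out single libraries gave 0 to 4. At stage 12 the count was 0 on unscaled FPKM, TPM and quantile-normalized values, with a pseudocount of 0.1 and with the replicate block, and 0 to 1 with single libraries left out. Between the stages in ostie1-1 it was 0 on unscaled FPKM and TPM, with a pseudocount of 0.1, with no variance trend and with the replicate block, 3 with array weights, and 0 to 3 with single libraries left out. In WT it was 1 with array weights (CESA5 lower, adjusted p = 0.0210, limma), where 2342 of all loci passed in either direction. Between the stages in ostie1-1 no alternative had more than 4808 of all loci passing. Array weights gave WT stage 10 replicate 3 a weight of 0.0913. With the replicate block the adjusted p in limma was 0.0772 for CESA1 at stage 10 and 0.0763 for CESA5 at stage 12. Deviations of same-numbered libraries from their group means correlated at -0.469 to 0.147. These deviations sum to 0 within each small group, so they cannot decide whether the numbers pair the libraries. Leaving out an ostie1-1 stage 12 library leaves a single one, assumed to vary like the other groups.

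Among the primary wall genes, CESA2, CESA4, CESA7, CESA9 and the other genes named with values, in the comparisons given for them, no called value changed sign. Uncalled values of these genes that did, on the log2 scale, were those of CESA8 at stage 12 (-0.26 on unscaled FPKM, -0.36 on TPM, -0.025 with quantile normalization, -0.0056 and -0.022 without WT stage 12 replicates 1 and 2, -0.42 to 0.57 over single libraries left out, the lowest without ostie1-1 stage 12 replicate 1) and CESA6 at stage 12 (-0.079 on TPM). CESA2 at stage 12 had 0.11 with the scaling used and -0.073 on unscaled FPKM, -0.16 on TPM, -0.037 with quantile normalization, -0.021 with a pseudocount of 0.1 and -0.60 to 0.83 over single libraries left out, the lowest without ostie1-1 stage 12 replicate 1. In WT between the stages, CESA6 had 0.20 and CESA8 0.016 with array weights, and 0.22 and 0.062 without WT stage 10 replicate 3, the highest of -0.63 to 0.22 and of -0.55 to 0.062 over single libraries left out. The difference between stages for CESA5 was -0.14 with array weights and -0.027 without ostie1-1 stage 10 replicate 1, within -0.027 to 0.63 over single libraries left out. CESA4 at stage 10 had 0.13 without WT stage 10 replicate 3, within -1.78 to 0.13. CESA10, CESA11 and the uncalled genes of the other lists were compared only with and without that library, and some of their values changed sign, among them CESA10 in WT between the stages (-0.36 and 0.32). The cause of these changes was not tested. The median of all loci shifted from -0.01 to -0.13 and -0.20 at stage 10, and from 0.05 to -0.21 and -0.30 at stage 12, on unscaled FPKM and TPM, and changes are given relative to the median-of-ratios scale. Over all loci the count passing was 619 at stage 10 (103 with only the groups compared to 13575 with array weights), 751 at stage 12 (212 without ostie1-1 stage 12 replicate 1 to 3488 without WT stage 10 replicate 3), 557 in WT between the stages (3 without WT stage 12 replicate 3 to 2342 with array weights), 2281 in ostie1-1 (613 without ostie1-1 stage 12 replicate 1 to 4808 without WT stage 10 replicate 3) and 4 for the difference between stages (0 on TPM to 196 without the filter). Taking the highest transcript model of each locus left every member count as it was.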

Other observations

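Other growth-related wall genes and anther markers were followed as lists. Of 7 listed alpha-expansins, the wall-loosening proteins of growing cells, 6 were tested and 0 passed in limma in any comparison with all libraries. Between the genotypes, 3991 of the 21279 loci had an unadjusted p below 0.05 at stage 10 and 4190 at stage 12. Among the 6 expansins there were 1 and 2. Their median log2 fold change was 0.38 at stage 10 and 0.65 at stage 12, and without WT stage 10 replicate 3 there were 3 called higher at stage 10 and 2 at stage 12, beside 18.8% and 10.9% of all loci. In that fit 3 were called lower between the stages in ostie1-1, beside 9.52%. All 4 late pollen genes rose from stage 10 to 12 in WT (median log2 fold change 4.57) and 3 of 4 in ostie1-1 (4.37). Over all loci 2.11% were called higher in WT and 7.78% in ostie1-1. Between the genotypes at stage 12, 0 of the 4 passed in limma, and their directions differed. An unadjusted p below 0.05 was found for 3 of the 4, beside 4190 of the 21279 loci tested. Mean FPKM there was 699 in WT and 1382 in ostie1-1 for PRF_a, and 543 and 1232 for PRF_b. It was 110 in WT and 15.8 in ostie1-1 for EXPB1, and 114 and 10.96 for EXPB13. The scaled groups overlapped for EXPB1 and EXPB13 and did not for PRF_a and PRF_b, as held in the upward direction for 25.8% of all loci. Of 7 tapetum genes, 1 fell in each genotype, beside 0.512% of all loci in WT and 2.94% in ostie1-1. This was OsC6 (LOC_Os11g37280), for a lipid transfer protein of the tapetum, with a log2 fold change of -3.79 in WT and -3.10 in ostie1-1 (adjusted p = 0.0173 in both, limma). In WT it did not pass when stage 10 replicate 2 (adjusted p = 0.0679) or stage 12 replicate 3 (adjusted p = 0.0985) was left out, and in ostie1-1 it did not pass without either stage 12 library or either of stage 10 replicates 2 and 3 (adjusted p = 0.0558 to 0.1203). MADS6 passed between the genotypes at stage 12 too (log2 fold change 2.99, adjusted p = 0.0370, limma), a call lost in 14 of 22 alternatives, with the highest adjusted p, 0.224, without ostie1-1 stage 12 replicate 2.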
